A study of Mus musculus with 8 samples.

Results

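The miR-146 family of the mouse was examined in cartilage cells exposed to a proinflammatory cytokine. Its members are the 4 mature miRNAs cut from the hairpins of Mir146 and Mir146b, namely mmu-miR-146a-5p, mmu-miR-146a-3p, mmu-miR-146b-5p and mmu-miR-146b-3p. They were taken by name from a table of 1966 mature miRNAs, and the family was chosen with earlier results of these data known. Of the 4 members, 3 had at least 1 count, and the same 3 were among the 564 miRNAs abundant enough to be tested. Wild-type mice 3 weeks of age gave the cartilage of the femoral head, from which primary articular chondrocytes were isolated. The cells were cultured for 24 h with vehicle (n = 4 libraries) or with IL-1β at 1 ng/ml (n = 4 libraries). Neither the sex of the mice nor whether animals were pooled, or whether the libraries of a group came from separate cultures, is given in the sources used here, so the p-values below measure the spread between these libraries, which may be technical.

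NF-κB is the transcription factor that carries the IL-1 signal from the receptor to the nucleus, and the gene of miR-146a is one of its best-known targets. Mature miR-146 in turn represses Irak1 and Traf6, the kinase and the ubiquitin ligase that pass the signal on, so the pair forms a negative feedback loop. A miRNA finds its mRNA targets mainly through its seed, bases 2 to 8 from the 5′ end, and members that share a seed are thought to share most targets. Each hairpin yields a 5p and a 3p arm, of which usually a single arm is kept in the silencing complex while the other is degraded.

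The mature sequences of all 4 members, from RefSeq on the build GRCm38.p6, are shown because the shared seed of the 5p arms and their near identity bear on every count below. Capitals mark the seed.
mmu-miR-146a-5p: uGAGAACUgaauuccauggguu
mmu-miR-146b-5p: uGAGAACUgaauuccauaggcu
mmu-miR-146a-3p: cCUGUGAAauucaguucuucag
mmu-miR-146b-3p: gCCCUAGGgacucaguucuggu

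The 5p arms had the same seed and the same first 17 bases, and differed by G18A and U21C, with the base of miR-146a-5p first and positions counted from its 5′ end. A read ending within those 17 bases could not be assigned to either paralog. The 3p arms differed at 18 of 22 positions and had different seeds. The seeds of the 4 members were looked up among 1679 mature mouse names in the RefSeq table. Of these seeds, only that of the 5p arms was shared with another name, and the only sharer was the paralog. Each of the 4 members had a single locus and was listed at a length of 22 nt in the count table, so no length of several loci had been added up.

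The hairpins lie on different chromosomes of GRCm38.p6. Mir146 spans chr11:43374397-43374461 on the minus strand. Its 5p arm is at 43374435 to 43374456 and its 3p arm at 43374399 to 43374420. No other gene of GENCODE overlapped it, and the nearest was the lincRNA gene Gm12148 at 11021 bp. Mir146b spans chr19:46342762-46342870 on the plus strand, with the 5p arm at 46342790 to 46342811 and the 3p arm at 46342828 to 46342849. This hairpin lay 1641 bp from the start of the protein-coding gene Mfsd13a, on the same strand and in an intron of its transcript.

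Libraries held 616475 to 1568367 counts, and the floor of 3 counts, which an observed 0 still allows, lay between 1.91 and 4.87 CPM (counts scaled to 1000000 in each library). IL-1β replicate 4 stood apart from the other libraries, also when the members were left out. Across 193 miRNAs averaging 50 counts or more per library, without both 5p arms of miR-146, the log2 deviation of a library from the other 3 of its group had an SD of 0.36 in this library and of 0.15 to 0.22 in the other 7. The cells carried the cartilage miRNAs, led by miR-140-3p with 1193044 of their 1233776 counts. The scarcest of them, miR-675-5p, had 3 counts in the whole series. The cartilage list of 6 miRNAs, of which 0 were undetected, summed to 153561 to 168982 normalized CPM with vehicle and 132621 to 155831 with IL-1β (CPM with the library total scaled by TMM, the trimmed mean of M values), with the lowest sum in replicate 4. Of 10 haematopoietic miRNAs, of interest because immune cells are rich in miR-146a, 7 were at 0 in all libraries, among them miR-451a, miR-223-3p and miR-142a-3p. The 10 summed to 44.5 to 62.5 normalized CPM with vehicle and 25.6 to 45.5 with IL-1β, of which replicate 4 had 33.8. Nearly all of it was miR-150-5p, with 370 of 376 counts. Muscle miRNAs had 0 counts, endothelial miRNAs 8 and epithelial miRNAs 20 in the whole series. The epithelial sum was at most 1.56 normalized CPM in a vehicle library and at most 10.2 in a treated library, with 5.01 in replicate 4. The part of the cartilage, haematopoietic and epithelial sums in the results below was not tested.

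The first question was whether the guide arm of miR-146a responds to IL-1β. mmu-miR-146a-5p was counted 75, 147, 147 and 48 times in vehicle replicates 1 to 4, which corresponds to 79.5, 98.1, 91.8 and 74.8 normalized CPM. With IL-1β it was counted 127, 238, 184 and 655 times in the same order of replicates, and its level was 203, 201, 269 and 821 normalized CPM. All 4 treated libraries lay above all 4 vehicle libraries, and IL-1β replicate 4 was far above the other 3 treated libraries. Ranked by count within a library, miR-146a-5p held places 159 to 173 in the vehicle libraries and places 73 to 120 in the IL-1β libraries.

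The vehicle mean of miR-146a-5p was 86.1 ± 10.8 normalized CPM and the IL-1β mean 373 ± 300.02 (SD, n = 4), a ratio of 4.34. Without IL-1β replicate 4 the treated mean was 224 ± 38.7 (SD, n = 3) and the ratio 2.61. The log2 fold change of 2.09 was the third highest of the 564 miRNAs tested and the highest of the 195 with a mean of at least 50 counts. Its SE was 0.562, and the p adjusted over all miRNAs was 0.184 (edgeR quasi-likelihood test, unadjusted p = 0.00883), so that the arm was not called, a call being an adjusted p under 0.05 together with an absolute log2 fold change over 0.3. Of 3 arms tested 0 were called, against 1.95% of all 564 miRNAs, and 2 of the 3 had an unadjusted p under 0.05, as did 11.2% of all 564.

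The call of miR-146a-5p differed between fits, and the cause was not tested. DESeq2 called it at an adjusted p of 0.00188 (2.13% of all miRNAs called by this tool), limma voom with sample quality weights at 0.000104 (2.84% called) and edgeR without the robust option at 0.000816 (2.30% called). The quality weight of IL-1β replicate 4 was 0.395, against 0.797 to 1.24 in the others. Without that library edgeR called the arm at an adjusted p of 1.02e-08, with a log2 fold change of 1.33 (SE 0.125), where 3.54% of 537 miRNAs were called. In the other 13 fits of the 17 alternatives it was not called, with the smallest adjusted p at 0.0796, for the fit with 1 factor of unwanted variation. All 17 gave a positive fold change, from 1.33 to 2.28 on the log2 scale.

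**Figure D1:**
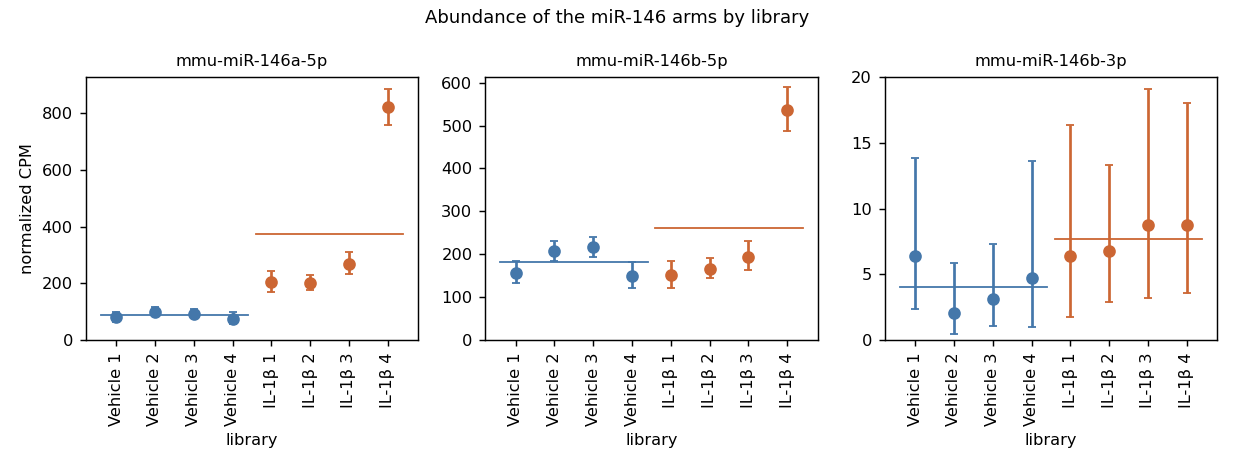
Normalized CPM of the 3 detected arms in each of the 8 libraries (y axis, from 0, scales differ between panels). Points are single libraries, bars their exact 95% binomial interval for counting error, and horizontal lines the group means. IL-1β replicate 4 reaches 821 for miR-146a-5p and 536 for miR-146b-5p, whereas its miR-146b-3p, at 8.77, lies with the other treated libraries.

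The paralog with the same seed was then examined. mmu-miR-146b-5p stood at 157, 207, 216 and 148 normalized CPM in vehicle replicates 1 to 4, from 148, 310, 346 and 95 counts. The treated libraries held 94, 197, 133 and 428 counts in the same order of replicates, which gave 150.4, 166, 194 and 536 normalized CPM. The first 3 treated libraries lay within the range of the vehicle libraries, and only IL-1β replicate 4 lay outside it. Its mean was 182 ± 34.5 and 262 ± 184 normalized CPM (SD, n = 4), and 170.2 ± 22.3 with IL-1β when replicate 4 was left out (SD, n = 3).

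IL-1β over vehicle, miR-146b-5p had a log2 fold change of 0.50 (SE 0.462, adjusted p = 0.757 in edgeR) with all libraries and of -0.14 (SE 0.127, adjusted p = 0.749) without IL-1β replicate 4. It was positive in the other 16 of the 17 fits, and the adjusted p ranged from 0.615 to 0.966. With quality weights in limma voom, which keep the library at a lower weight, the log2 fold change was 0.06 (SE 0.193). A change of miR-146b-5p was therefore not detected, although the SE leaves room for one of about the size of its estimate.

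**Figure D2:**
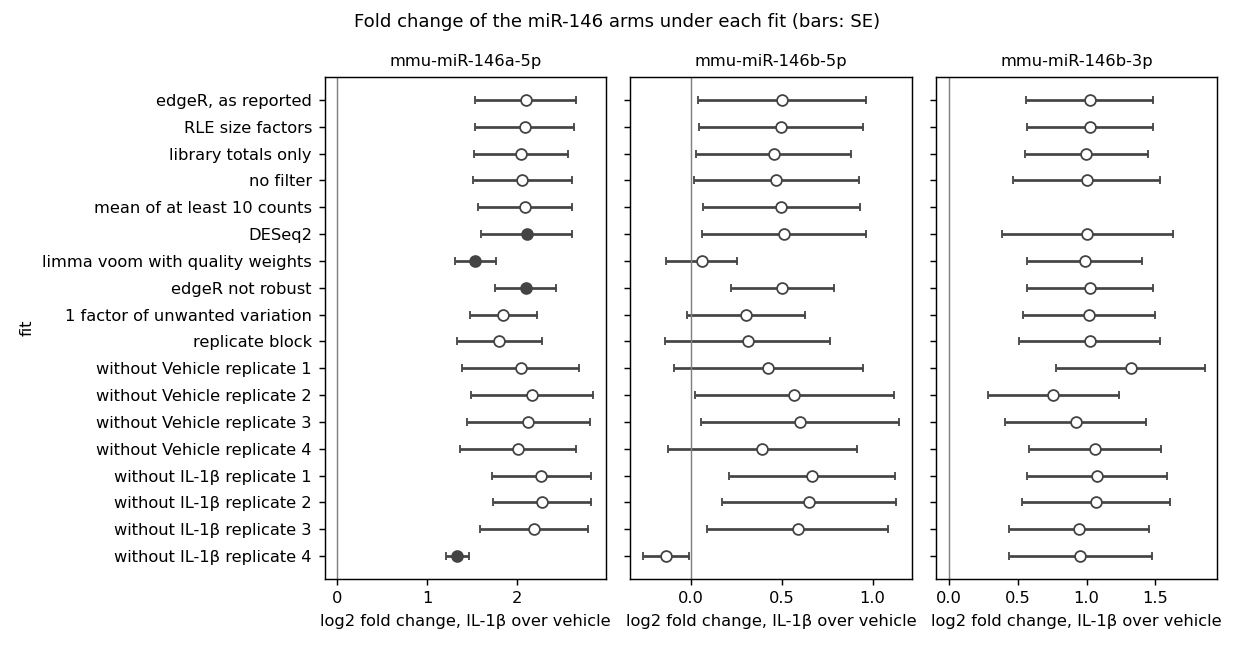
Log2 fold change of IL-1β over vehicle (x axis) for each detected arm under the reported edgeR fit and its 17 alternatives (y axis). Bars are SE and filled points are called. miR-146a-5p stays right of 0 throughout and is called in 4 alternatives, miR-146b-5p crosses to -0.14 without IL-1β replicate 4, and the row without a point for miR-146b-3p is a filter this scarce arm did not pass.

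The responses of the paralogs were compared directly through their ratio within each library, which needs no scaling between libraries. In vehicle replicates 1 to 4 there were 0.507, 0.474, 0.425 and 0.505 counts of miR-146a-5p for each count of miR-146b-5p. In IL-1β replicates 1 to 4 there were 1.35, 1.21, 1.38 and 1.53. miR-146b-5p was the more frequent of the pair in every vehicle library and miR-146a-5p in every treated library. IL-1β replicate 4, which was far from the others in the level of either arm, lay close to them in the ratio.

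As shares of the combined 5p counts, miR-146a-5p made up 32.3% ± 1.79 in the vehicle group and 57.7% ± 2.37 in the treated group (SD, n = 4). The exact 95% binomial intervals of single libraries ran from 25.8% to 41.9% over the vehicle libraries and from 49.9% to 64.1% over the treated libraries, and they did not overlap between groups. The log2 ratio, with 0.5 added to each count, averaged -1.06 ± 0.121 in the vehicle group and 0.45 ± 0.140 in the treated group (SD, n = 4). This difference of 1.51 corresponds to a 2.85-fold change of the ratio. It had p = 0.0286 in an exact permutation test over 70 arrangements, two-sided, the smallest p this design allows. Adjusted over the 2 ratios tested, the exact permutation p was 0.0571 and missed the threshold of 0.05. Leaving out any library moved the difference only between 1.46 and 1.57, and without IL-1β replicate 4 it was 1.46.

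**Figure D3:**
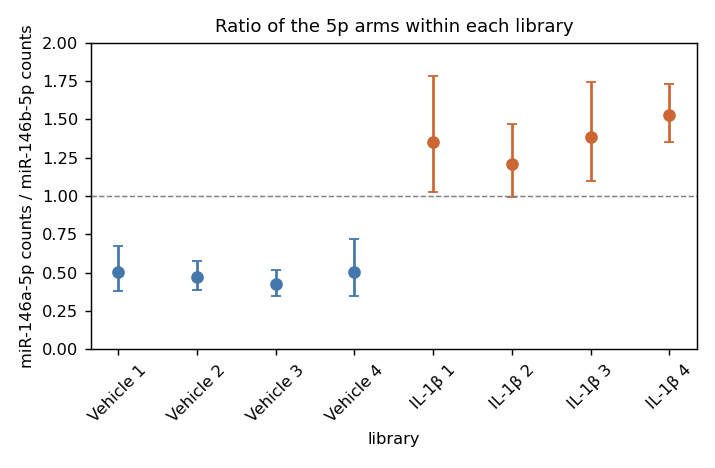
Counts of miR-146a-5p divided by counts of miR-146b-5p in each library (y axis, from 0). Points are libraries, bars exact 95% binomial intervals for counting error, and the dashed line marks equal counts. The vehicle libraries sit at 0.425 to 0.507 and the IL-1β libraries at 1.21 to 1.53, replicate 4 included.

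Since the 5p arms share their seed, their summed level was also described. The sum was 236, 305, 308 and 223 normalized CPM in vehicle replicates 1 to 4. In the treated libraries, in the same order, it was 354, 367, 463 and 1357, so that all treated libraries lay above the vehicle libraries. The vehicle mean was 268 ± 44.8 and the IL-1β mean 635 ± 484 (SD, n = 4), a ratio of 2.37, and the ratio was 1.47 without IL-1β replicate 4. For miR-146a-5p alone the corresponding ratios were larger, at 4.34 and 2.61. Ligation favours some sequences over others, which limits any reading of such a sum, or of the ratio of the paralogs, as molar amounts.

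The other arms of the same hairpins were scarce. mmu-miR-146a-3p, the partner of miR-146a-5p in its hairpin, had 0 counts in all 8 libraries. Over the series this allows a level of up to 0.377 CPM (3 of 7959576 counts), and in a single library up to 1.91 to 4.87 CPM. With 1621 counts in all and the 3p arm set at its floor of 3 counts, the 5p arm was at least 540-fold higher than the 3p arm over the series. By library it was at least 16-fold to at least 218-fold higher. IL-1β replicate 4 gave 655 of the 5p counts, and without it the bound over the series was at least 322-fold. Whether the 3p arm followed the 5p arm under IL-1β was not detectable at this depth.

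mmu-miR-146b-3p was counted 6, 3, 5 and 3 times in vehicle replicates 1 to 4 and 4, 8, 6 and 7 times in IL-1β replicates 1 to 4. These counts correspond to 6.36, 2.00, 3.12 and 4.67 normalized CPM with vehicle and to 6.40, 6.74, 8.77 and 8.77 with IL-1β. The treated libraries all lay above the vehicle libraries, but the nearest pair was separated by only 0.0365 normalized CPM, well inside the counting interval of either library. The means were 4.04 ± 1.90 and 7.67 ± 1.28 normalized CPM (SD, n = 4). edgeR estimated a log2 fold change of 1.02 with an SE of 0.461, an unadjusted p of 0.0361 and an adjusted p of 0.372. A two-sided exact permutation test of log2(CPM + 1), where the groups differed by 0.85, gave p = 0.0286 before any adjustment. The arm was not called in any of the 16 fits that could include it, with an adjusted p of 0.264 to 0.679 (not given by DESeq2). Of the 3 arms tested, 2 had all treated libraries above all vehicle libraries, a pattern held by 4.61% of all 564 miRNAs.

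Unlike the 5p arm of its own hairpin, miR-146b-3p was not set apart in IL-1β replicate 4. miR-146b gave 24.7, 103, 69.2 and 31.7 counts of the 5p arm per count of the 3p arm in vehicle replicates 1 to 4. In IL-1β replicates 1 to 4 it gave 23.5, 24.6, 22.2 and 61.1. The groups overlapped, and the mean log2 ratio differed by -0.65 (exact permutation test, two-sided p = 0.200, adjusted 0.200 over 2 ratios). Leaving out single libraries moved this difference between -0.31, without vehicle replicate 2, and -1.003, without IL-1β replicate 4, with exact permutation p of at least 0.171. The values rest on 3 to 8 counts of the 3p arm, so that in IL-1β replicate 4 the 3p share of 1.61% had an exact 95% interval of 0.649% to 3.29%, which overlaps that of each of the other treated libraries.

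The share of the 3p arm was compared between the hairpins. This arm made up 2.34% of all miR-146b counts over the series (exact 95% interval 1.69% to 3.15%), whereas for miR-146a it could make up at most 0.185% (3 counts). At the arm ratio of miR-146b, the counts of miR-146a-5p would have come with 38.9 counts of its 3p arm. Without IL-1β replicate 4 the limit for miR-146a was 0.311%, the 3p share of miR-146b 2.58% (exact 95% interval 1.80% to 3.57%) and the number of counts 25.6. Within the vehicle group the limit for miR-146a was 0.719%, with 7.89 counts at the arm ratio of miR-146b, whose 3p share was 1.86% (exact 95% interval 1.08% to 2.95%). Within the IL-1β group the limit was 0.249%, with 35.3 counts, and the 3p share of miR-146b was 2.85% (1.85% to 4.18%). IL-1β replicate 4 gave 655 of the 1204 counts of miR-146a-5p behind that limit, which would be higher without it. Among 91 hairpins whose major arm had at least 1000 counts over the series, 7 had a minor arm at 0, miR-146a among them. With both groups pooled, the median share of the minor arm was 0.551%, and 61 of the 91 had a lower share than miR-146b. Ranks within a group were not examined. Intervals and floors cover counting error only, since no molecular identifiers were described.

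miRNAs with a library pattern like that of the 5p arms were identified by the root mean square (RMS) difference between profiles of log2(normalized CPM + 1) over the 8 libraries, each centred on its own mean, among the 194 others averaging 50 counts or more. The 5 nearest to miR-146a-5p were miR-365-2-5p, miR-192-5p, miR-146b-5p, miR-21a-5p and miR-10b-5p, at RMS differences of 0.721 to 0.796 on the log2 scale, where the median of all was 1.09. miR-365-2-5p stood at 46.7 to 56.7 normalized CPM in the vehicle libraries and at 76.8, 67.4, 83.3 and 108 in IL-1β replicates 1 to 4. It thus had the same order of groups as miR-146a-5p at a smaller amplitude.

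The nearest patterns to miR-146b-5p were closer, at 0.228 to 0.357, with a median of 0.574 over all. They were miR-10a-5p and miR-10b-5p, whose hairpins lie in the Hox gene clusters, followed by miR-541-5p, miR-148a-5p and miR-192-5p. miR-10a-5p stood at 751 to 821 normalized CPM in the vehicle libraries and at 685, 804, 947 and 1712 in IL-1β replicates 1 to 4. None of the 5 was called, with edgeR adjusted p from 0.115 to 0.992, and each was highest in IL-1β replicate 4. miR-146a-5p was the 182nd nearest of the 194 to its paralog. The measure counts amplitude as well as shape, and the RMS of the centred profile itself was 1.10 for miR-146a-5p and 0.567 for miR-146b-5p, close to the median differences above, so a flat profile would lie at about the median distance and the rank does not show an unlike order of libraries. These are descriptions of 8 libraries in which a single library sets much of the pattern.

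Within IL-1β replicate 4 the deviation from the other 3 treated libraries was 1.89 on the log2 scale for miR-146a-5p and 1.66 for miR-146b-5p, the highest and second highest of 195. In this library 5 miRNAs, of which 3 were not members, deviated by over 1 in either direction, whereas 0 did so in any other library. In vehicle replicates 2 and 3 both 5p arms were above the rest of their group and in replicates 1 and 4 below it, by -0.37 to 0.36 on the log2 scale. The paralogs therefore varied together within groups, while their ratio kept to a narrow range within each group. The source of the distance of IL-1β replicate 4 was not tested.

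**Figure D4:**
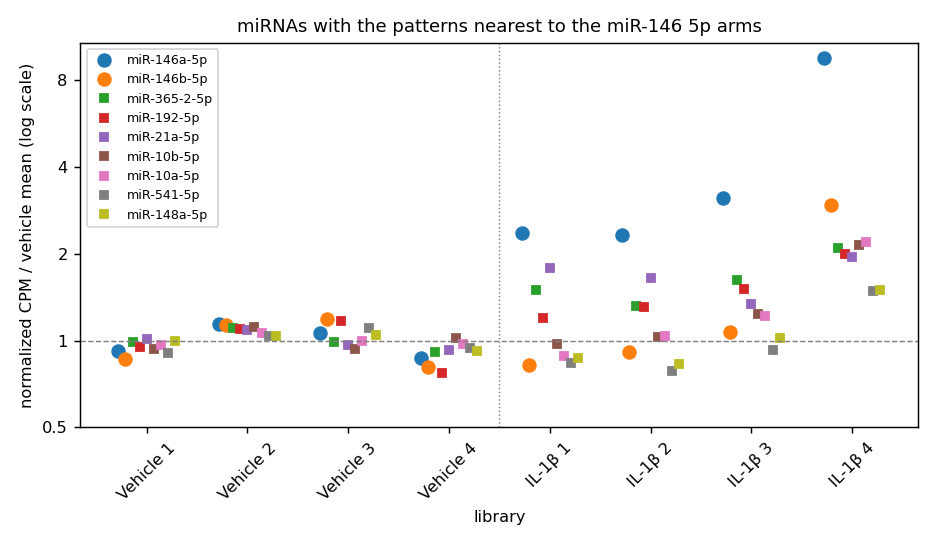
Normalized CPM of the miR-146 5p arms (large circles) and of the miRNAs with the nearest patterns (small squares), each divided by its vehicle mean (y axis, log scale), in the 8 libraries (x axis, points of a library are spread sideways). miR-146a-5p is at 2.33 to 3.12 times its vehicle mean in IL-1β replicates 1 to 3 and at 9.54 times in replicate 4, whereas miR-146b-5p is at 0.826 to 1.07 and 2.95 times.

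Other miRNAs reported to respond to NF-κB or to IL-1 were set beside the family. The list held 37 arms, of which 24 were tested, 5 were at 0 in all libraries, and 3 were called, all of them higher with IL-1β, where 1.42% of all 564 miRNAs were called higher. Of the 24 tested, 17 had a positive and 7 a negative log2 fold change. Their median was 0.20, against 0.01 over all 564 miRNAs, and 0.06 without IL-1β replicate 4.

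The 3 called were miR-21a-5p, a widely expressed miRNA that represses Pdcd4, miR-222-3p, a repressor of the cell cycle inhibitor Cdkn1b, and miR-365-2-5p. miR-21a-5p stood at 330 to 387 normalized CPM in the vehicle libraries and at 633, 584, 475 and 694 in IL-1β replicates 1 to 4, and rose by 0.75 on the log2 scale (SE 0.105, adjusted p = 3.58e-05 in edgeR). miR-222-3p stood at 2668 to 2824 in the vehicle libraries and at 4364, 4562, 4203 and 3665 in the treated ones, a log2 increase of 0.62 (SE 0.0842, adjusted p = 2.46e-05 in edgeR). miR-365-2-5p, with the levels given above, rose by 0.68 (SE 0.160, adjusted p = 0.0195 in edgeR). All 3 fold changes were smaller than the 2.09 of miR-146a-5p, and so were their SE. In IL-1β replicate 4, miR-222-3p was the lowest of the treated libraries, while miR-21a-5p and miR-365-2-5p were the highest.

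Without IL-1β replicate 4 the same 3 were called, with log2 fold changes of 0.67, 0.68 and 0.52, and miR-146a-5p, at 1.33, exceeded each of them. miR-365-2-5p was not called when vehicle replicate 3, vehicle replicate 4 or IL-1β replicate 3 was left out. In the fit to all 8 libraries the 21 others ranged from -0.61 to 1.22 on the log2 scale, with edgeR adjusted p of at least 0.192. Without IL-1β replicate 4, miR-31-5p, named here after its values were seen, had an adjusted p of 0.00917 in edgeR, with a log2 fold change of 0.26 that is under the 0.3 needed for a call. Among the 21, miR-155-5p, another NF-κB target of immune cells, named here after its values were seen, stood at 40.3 to 73.2 normalized CPM with vehicle and 48.9 to 58.9 with IL-1β (log2 fold change -0.03, SE 0.177).

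**Figure D5:**
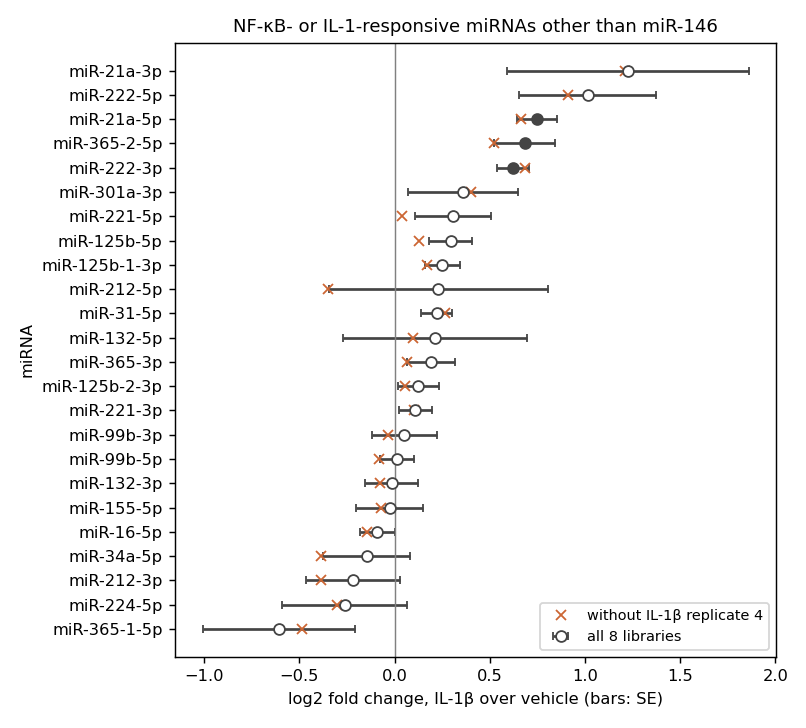
Log2 fold change of IL-1β over vehicle (x axis) for the 24 tested arms of the list (y axis). Circles are the fit to all 8 libraries with SE, filled where called, and crosses the fit without IL-1β replicate 4. The 3 filled circles, at 0.62 to 0.75, keep their side of 0 without that library.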

How the data were processed

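Per the labels and the study's methods, the authors trimmed reads (cutadapt), aligned them to mm10 (STAR, default settings), assigned them to mature miRNAs (featureCounts) and deposited integer counts. Use of strand and the handling of reads with several matches are not given in the sources used here, so counts of near-identical paralogs are uncertain. A batch correction was described, and whether the deposited integers precede it is not given in the sources used here, so they were tested as they stand.

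Counts were tested with edgeR 4.0.16 (robust quasi-likelihood fit, TMM scaling, group as the only term, two-sided) in R 4.3.3, for miRNAs over 1 CPM in at least 4 of 8 libraries, with Benjamini-Hochberg adjustment over all 564. SE was the log2 fold change divided by the square root of F. The study tested with DESeq2, run here (1.42.0) as an alternative beside limma 3.58.1, other scalings and filters, a factor of unwanted variation, a replicate block and fits without each library. Ratios of counts were compared by exact permutation in Python 3.11.15, and exact binomial intervals were computed with scipy 1.17.1. The planned ratio of the miR-146a arms was not tested, because its 3p arm had 0 counts, and p-values were adjusted over the other 2 ratios. The fit was checked on simulated counts with equal spread in all libraries, so the check did not cover a library set apart like IL-1β replicate 4. No libraries of a group agreed within counting noise. The rule for named miRNAs was the 4 members, the called arms of the NF-κB list, the 5 nearest patterns to each 5p arm and the marker lists. The members and lists were chosen with earlier results of these data known. RefSeq held 1675 of the 1966 names.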

Additional observations from a re-analysis of the deposited data

Results flagged for a closer look

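Of 28 groups of 4 libraries examined, 4 held a library whose gap to its nearest neighbour took more of the range of the group than Dixon's 95% critical value allows, and chance alone gives about 1 in 20. All 4 were IL-1β replicate 4. Its values were 821 normalized CPM for miR-146a-5p (201 to 269 in the other 3), 536 for miR-146b-5p (150 to 194), 1357 for the summed 5p arms (354 to 463) and 61.1 counts of miR-146b-5p per count of miR-146b-3p (22.2 to 24.6). The 4 values are not independent, as each holds a 5p arm of the family. The ratio of the 5p arms in that library, at 1.53 against 1.21 to 1.38, was not set apart in this way.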

How the results depend on the processing

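miR-146a-5p was not called in the reported fit (2.09). It was called with DESeq2 (2.10), limma voom with quality weights (1.53), edgeR without the robust option (2.09) and without IL-1β replicate 4 (1.33). The exact permutation test gave a difference of 1.84 in log2(CPM + 1) with p = 0.0286. This is the smallest p the design allows, and it is not adjusted over all miRNAs. Over the fits without 1 library each, the log2 fold change of miR-146a-5p lay between 1.33 and 2.28. miR-146b-5p lay between -0.14 and 0.67 in those fits, and turned negative only without IL-1β replicate 4. For miR-146b-3p the exact permutation difference was 0.85 (p = 0.0286), a test without adjustment over all miRNAs, and its range without single libraries was 0.76 to 1.32. The number of miRNAs called, 11, was 18 with a factor of unwanted variation and 19 with the replicate block, and ranged from 6 (without vehicle replicate 4) to 19 (without IL-1β replicate 4). It was 7 without vehicle replicate 2 and 7 without IL-1β replicate 3. The cause was not tested.

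The replicate block changed no call of a member, with log2 fold changes of 1.80, 0.31 and 1.02 for miR-146a-5p, miR-146b-5p and miR-146b-3p, and of 1.51 for the paralog ratio, where the smallest exact p of 4 pairs is 0.125. Deviations of same-numbered libraries had correlations of -0.34 to 0.17, and the numbers were not taken as pairs. The correlations cannot settle this, since counts that follow a batch correction could hide a shared batch. The summed 5p arms (log2 difference 1.01) ranged from 0.56 to 1.21 without single libraries. miR-146a-3p gave no value under any alternative, and miR-146b-3p none with a mean of at least 10 counts. Depth limits both 3p arms.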
